A study of Arabidopsis thaliana with 24 samples.

Results

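The auxin response of the axr3-1 mutant of Arabidopsis thaliana is the difference between seedlings given the auxin indole-3-acetic acid (IAA) and seedlings given its ethanol solvent. It was measured on 6 of the 24 ATH1 arrays of the series, 3 for axr3-1 IAA and 3 for axr3-1 control, chosen by their labels alone. All seedlings were grown for 7 days in shaken liquid Murashige and Skoog medium with 1.5% sucrose under 16 h light and 8 h dark, then kept for 2 h at 24 °C with 5 µM IAA or ethanol. The axr3-1 line carries a gain-of-function allele of the Aux/IAA gene IAA17 in the Columbia background. The other 3 lines, each with 3 control and 3 IAA arrays, were the Columbia wild type (Col), iaa17-6, and the triple mutant iaa5-1 iaa6-1 iaa19-1, here iaa5 iaa6 iaa19. The samples were whole seedlings, so that fewer cells of a type and less RNA per cell cannot be told apart.

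Auxin acts on transcription by removing repressors. Aux/IAA proteins hold auxin response factors (ARFs) inactive at the promoters of target genes. Auxin binds its receptors of the TIR1/AFB family together with an Aux/IAA protein, which is then degraded, and the ARFs are freed. The protein made in axr3-1 is altered in the part that the receptors bind and is long-lived, and the mutant is known for short roots without root hairs and for poor gravitropism. The comparison asks which transcripts still respond to auxin in seedlings that hold this stabilised repressor.

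The deposited values are log2 levels that were cut off below at 5.64, the log2 of 50, called the floor here. Per array, between 44.4% and 46% of probe sets lay on it. Array medians lay between 5.941 and 6.064. Correlations between arrays of the same axr3-1 group lay between 0.966 and 0.985 across the 14192 probe sets tested, and axr3-1 IAA replicate 3 was the least like its group (0.966 and 0.973). Results that rest on this array are given without it as well. Among the other lines, iaa5 iaa6 iaa19 IAA replicate 1 stood apart, with correlations of 0.961 and 0.963 against 0.996 between the other arrays of its group. None of the probe sets named here belongs to IAA17, so the mutated gene gives no check of the labels. The title of 1 axr3-1 control array spells the line arx3-1, and its description says axr3-1. The labels do not say whether replicates were separate cultures, so p-values reflect the scatter among the arrays at hand alone, and that scatter may be technical.

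IAA raised 254 probe sets in axr3-1 and lowered 87 (limma, Benjamini-Hochberg adjusted p under 0.05), which is 1.79% and 0.613% of those tested. Rises were larger than falls. A size of 2-fold or more was reached by 106 of the 254 rises and 4 of the 87 falls, and 17 rises reached 4-fold or more. The median change was 0.89 on the log2 scale among rises and 0.62 among falls in absolute size, while the median response of all probe sets tested was 0. The 3 IAA arrays did not overlap the 3 control arrays for any of the 254 rises, nor for 82 of the 87 falls. Over all probe sets tested, the IAA arrays lay wholly above the control arrays for 7.48% and wholly below them for 8.15%. Changes below 1.5-fold made up 46 of the rises and 40 of the falls.

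The floor shaped both ends of the response. For 36 of the rises all 3 control arrays lay at the floor, so that their folds are lower bounds, and for 11 of the falls all 3 IAA arrays did. All 6 axr3-1 arrays were above the floor for 169 rises and 52 falls. At least 1 of the 8 groups lay wholly at the floor for 77 rises and 44 falls, and at least 4 groups for 30 and 24. A group at the floor enters the pooled error with a spread of 0, and the smallest changes called were 0.17 on the log2 scale. Without axr3-1 IAA replicate 3 the counts were 158 rises and 50 falls, and without axr3-1 IAA replicate 1 they were 180 and 50. With only the 6 axr3-1 arrays in the fit they were 72 and 12.

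The call held under each alternative setting that tested the gene for 20 of the 59 genes called and described below. Of the 20, 8 were tested in all settings, and 12 were left out by 1 or more of the stricter filters on low values. The 20 were GH3.3, HAT2, XTH19, IAA29, LBD29, LBD16, BGLU28, CLE44, EXO, GAMMA-VPE and 10 genes known by locus code, namely AT5G57760, AT5G62280, AT5G50335, AT1G62770, AT5G12050, AT1G49200, AT3G19200, AT1G59740, AT3G51410 and AT2G40435. The calls of the other 39 were lost with only the axr3-1 arrays in the fit (adjusted p = 0.051 to 0.471). For 26 of them the call was also lost without at least 1 axr3-1 array, named where the gene is described.

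**Figure D1:**
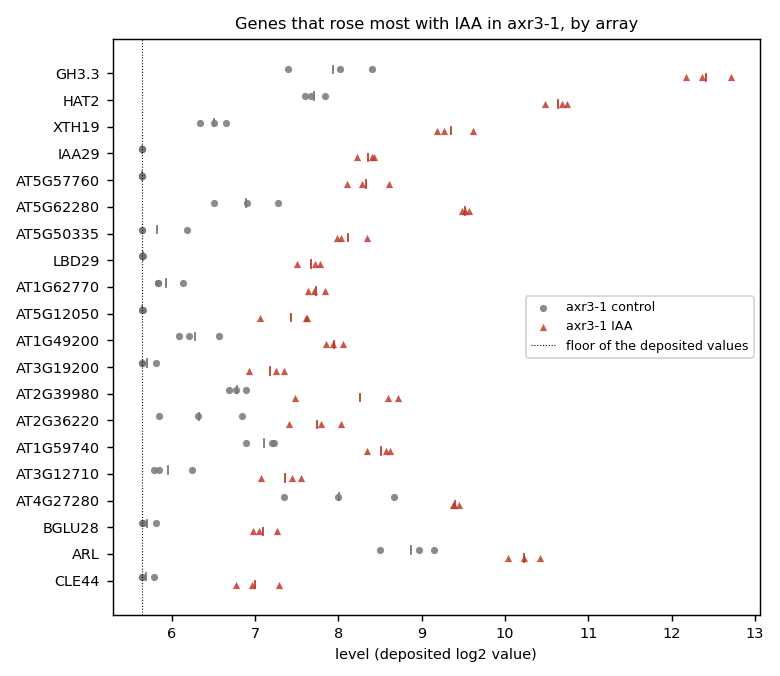
Level (deposited log2 value) on the 3 axr3-1 control arrays (grey circles) and the 3 axr3-1 IAA arrays (red triangles) for the 20 genes with the largest rise; short bars mark group means and the dotted line marks the floor at 5.64. Genes were chosen among those with the 3 IAA arrays above the 3 control arrays, so this separation is not a result. For IAA29 and AT5G57760 all 3 control arrays lie at the floor. Levels of different genes come from different probe sets and are not comparable.

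Among the genes that inactivate auxin, GH3.3 rose most of all annotated genes. GH3 enzymes join auxin to amino acids, and the family is a classic early auxin target. GH3.3 (AT2G23170) stood at 8.02, 7.39 and 8.40 on the control arrays and at 12.17, 12.71 and 12.36 on the IAA arrays, a rise of 22.2-fold (log2 4.47, SE 0.25, adjusted p = 8.19e-10). All 3 IAA arrays were far above the highest control array. The rise in Col was 5.86 on the log2 scale, and the difference between these responses, -1.39, was not past the threshold (95% interval -2.12 to -0.65, adjusted p = 0.0525). The difference from the mean response of the other 3 lines, which include Col, was -1.51 and did pass (SE 0.29, adjusted p = 0.0037).

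The GH3 list held 17 names, of which the annotation used here named 5 genes and 4 were tested. Of the 4 measured GH3 genes 1 rose and 0 fell in axr3-1, against 1.79% and 0.613% of all probe sets. Their median response was 1.16 on the log2 scale against 0 for all probe sets tested. In Col 3 of the 4 rose, where 3.85% of all probe sets did. WES1 (AT4G27260, also called GH3.5), whose enzyme acts on auxin and salicylic acid, stood at 8.14, 7.40 and 7.68 in control and at 9.15, 10.44 and 9.06 with IAA. Its groups do not overlap, but the IAA arrays spread widely, and the response of 1.81 did not pass the threshold (95% interval 0.76 to 2.86, adjusted p = 0.0668). The same gene passed with median centring (adjusted p = 0.047) and with array weights (adjusted p = 0.0283). GH3.1 (AT2G14960) lay at the floor on all 6 axr3-1 arrays, against 5.64, 5.64 and 5.64 in Col control and 7.56, 8.01 and 7.65 in Col IAA. GH3.17 had a response of 0.50 (SE 0.21, adjusted p = 0.345).

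IAGLU (AT4G15550) makes the glucose ester of IAA, another inactive form. It stood at 8.35, 7.64 and 8.08 in control and at 9.49, 9.63 and 8.85 with IAA, 2.47-fold higher (log2 1.30, SE 0.33, adjusted p = 0.0421). The IAA and control arrays did not overlap. This call was lost without axr3-1 IAA replicate 1 or 2 or axr3-1 control replicate 2 or 3 (adjusted p = 0.109 to 0.182). IAGLU was the 1 member to rise of 3 measured auxin metabolism genes, and 0 fell, against 1.79% and 0.613% of all probe sets. YUC6, a flavin monooxygenase of auxin synthesis, lay at the floor on all 6 arrays, and the glucosyltransferase gene UGT74D1 had a response of -0.58 (SE 0.26, adjusted p = 0.424).

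The list of Aux/IAA repressor genes held 38 names, of which the annotation used here named 7 genes and 3 were tested. Of these 3 measured genes 1 rose and 0 fell, against 1.79% and 0.613% of all probe sets. Their median response was 0.41. IAA29 (AT4G32280) was at the floor on all 3 control arrays and reached 8.43, 8.40 and 8.22 with IAA, a rise of at least 6.52-fold (log2 2.71, SE 0.09, adjusted p = 1.5e-13). The IAA arrays lay close together. In Col its rise was 3.49 on the log2 scale, from the floor as well, and the axr3-1 response minus the Col response was -0.78 (SE 0.12, adjusted p = 0.000945), a difference of floored values. IAA30 was at the floor on all 6 axr3-1 arrays. IAA18 had a response of 0.41 (SE 0.19, adjusted p = 0.424).

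The list of auxin-linked transcription factors held 41 names, of which the annotation used here named 4 genes, all tested. Of these 4 measured genes 3 rose in axr3-1 and 0 fell, and in Col all 4 rose. Of all probe sets 1.79% rose in axr3-1 and 3.85% in Col. The median response of the 4 genes in axr3-1 was 1.43 on the log2 scale. HAT2 (AT5G47370), a homeodomain leucine zipper factor, stood at 7.60, 7.84 and 7.67 in control and at 10.48, 10.69 and 10.74 with IAA, 7.63-fold higher (log2 2.93, SE 0.13, adjusted p = 4.61e-11). The arrays of each group lay close together and the groups far apart. The rise in Col was 3.00, and the difference between the responses was -0.07 (95% interval -0.47 to 0.33, adjusted p = 0.936).

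LBD29 and LBD16 are lateral organ boundaries domain factors with roles in lateral root formation downstream of ARFs. LBD29 (AT3G58190) stood at 5.64, 5.65 and 5.64 in control and at 7.50, 7.72 and 7.78 with IAA (log2 2.02, SE 0.15, adjusted p = 6.61e-08). LBD16 (AT2G42430) was at the floor on the 3 control arrays and at 6.54, 6.45 and 6.44 with IAA, at least 1.79-fold higher (log2 0.84, SE 0.07, adjusted p = 1.54e-07). Both measured rises were smaller than in Col, with a difference of -1.14 for LBD29 (SE 0.21, adjusted p = 0.00593) and of -1.16 for LBD16 (SE 0.09, adjusted p = 4.35e-07). Control arrays at the floor make both of these differences of floored values. PUCHI (AT5G18560), an AP2/ERF factor of the early lateral root primordium, stayed at the floor on all 6 axr3-1 arrays and reached 6.66, 6.70 and 6.35 in Col with IAA.

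Few genes of other hormone pathways are named in the annotation used here, which leaves 8730 of 22746 probe sets unnamed. Members of the lists among the unnamed probe sets could not be read. WAG2, a protein kinase gene linked to auxin transport, was the 1 measured member of its list and lay at the floor on all 6 axr3-1 arrays, while in Col IAA it read 6.54, 6.82 and 6.11. Of 2 measured ethylene genes 1 rose and 0 fell, against 1.79% and 0.613% of all probe sets. RTE1 (AT2G26070), which acts with the ethylene receptor ETR1 to repress ethylene signalling, went from 7.86, 7.78 and 7.59 to 8.54, 8.21 and 8.60 (log2 0.70, SE 0.14, adjusted p = 0.00877). Its groups do not overlap, but the call was lost without axr3-1 IAA replicate 1 or 3 or axr3-1 control replicate 3 (adjusted p = 0.0516 to 0.0616). EIN3, a transcription factor of ethylene signalling, had a response of -0.37 (SE 0.30, adjusted p = 0.669). The 1 tested cytokinin gene, RR16, lay at the floor on all 6 axr3-1 arrays, so that no response could be read from it. The jasmonate and wounding list, the heat shock list and the root hair list had 0 calls among 1, 2 and 4 tested members. Of the root hair members EXPA7, EXPA18 and XTH26 lay at the floor on all 6 axr3-1 arrays. The lists for SAUR genes, auxin receptors and ARFs, gibberellin and brassinosteroid, and lateral root and cell cycle had 0 members tested.

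**Figure D2:**
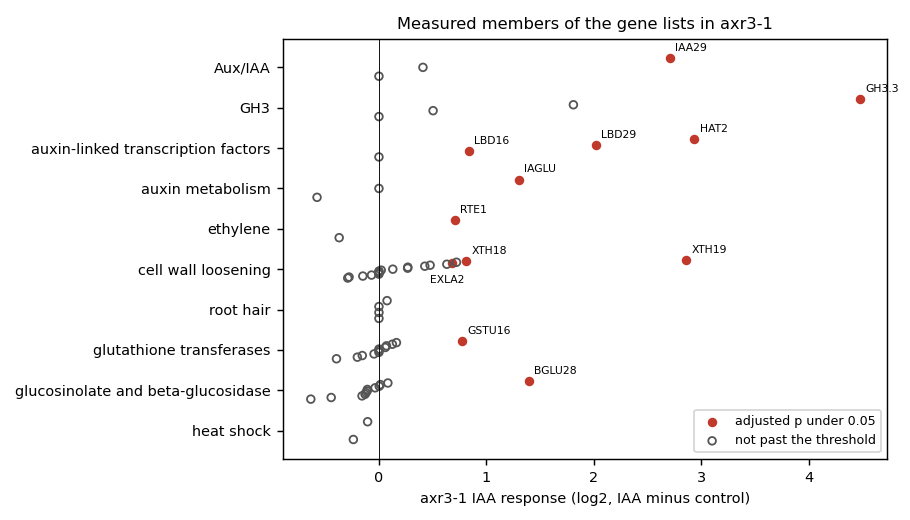
IAA response in axr3-1 (log2, IAA minus control) of the measured members of each gene list with at least 2 members; filled red points are past an adjusted p of 0.05 and open points are not. The called members all lie above 0, from EXLA2 at 0.68 to GH3.3 at 4.47.

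Cell wall loosening genes divided into a few that rose and many that were not called. Of 19 measured expansin and xyloglucan endotransglucosylase/hydrolase genes 3 rose (XTH19, XTH18 and EXLA2) and 0 fell, against 1.79% and 0.613% of all probe sets, with a median response of 0.13 on the log2 scale. The calls of XTH18 and EXLA2 were lost when some of the arrays were left out singly. These proteins let wall polymers slip or be rejoined while a cell grows. XTH19 (AT4G30290) stood at 6.51, 6.34 and 6.65 in control and at 9.27, 9.18 and 9.62 with IAA, 7.24-fold higher (log2 2.86, SE 0.27, adjusted p = 1.1e-06). On the Col arrays it stood at 7.46, 7.66 and 8.14 in control and at 9.12, 8.74 and 9.27 with IAA. The IAA levels of these lines overlap, whereas every axr3-1 control array was lower than every Col control array. The response was larger in axr3-1 by 1.57 (SE 0.38, adjusted p = 0.0382), and larger than the mean of the other 3 lines by 1.67 (SE 0.31, adjusted p = 0.00287). The difference from Col was lost without Col IAA replicate 1 or 2 or Col control replicate 2 or 3 or axr3-1 IAA replicate 1 or 2 or 3 or axr3-1 control replicate 1 or 2 or 3 (adjusted p = 0.0527 to 0.124), and that from the mean of the other lines held without each array in turn.

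XTH18 (AT4G30280), the gene next to XTH19 in the RefSeq order and of the same family, went from 7.94, 7.78 and 7.94 to 8.64, 8.55 and 8.91, 1.75-fold (log2 0.81, SE 0.18, adjusted p = 0.0127). Whether the probe sets of these relatives share signal was not tested. The call was lost without axr3-1 IAA replicate 3 or axr3-1 control replicate 2 (adjusted p = 0.0646 to 0.0872). EXLA2 (AT4G38400), an expansin-like gene, went from 5.70, 5.95 and 5.94 to 6.66, 6.41 and 6.57 (log2 0.68, SE 0.14, adjusted p = 0.00846), and its call was lost without axr3-1 IAA replicate 1 or axr3-1 control replicate 1 (adjusted p = 0.052). The members called in Col and not in axr3-1 were EXPA4, EXPA20 and XTH33, higher with IAA in Col, and XTH16, XTH32 and EXPB1, lower there. For EXPA4 the IAA arrays of axr3-1 read 10.06, 9.83 and 8.47, and the response was not past the threshold (log2 0.48, SE 0.38, adjusted p = 0.66). The response of EXPA20 was -0.15 in axr3-1 and 0.93 in Col, and that of XTH16 was 0.43 and -0.85. The differences between these responses, -1.08 and 1.28, passed the threshold (adjusted p = 0.0426 and 0.0394). That of EXPA20 was lost without Col IAA replicate 1 or 2 or 3 or Col control replicate 1 or 2 or 3 or axr3-1 IAA replicate 2 or 3 or axr3-1 control replicate 1 or 2 or 3 (adjusted p = 0.0517 to 0.133). That of XTH16 was lost without Col IAA replicate 1 or 2 or Col control replicate 3 or axr3-1 IAA replicate 1 or 2 or 3 or axr3-1 control replicate 1 or 2 or 3 (adjusted p = 0.0647 to 0.123). XTH33 read between 5.64 and 5.69 on all axr3-1 arrays, and its response differed from that of Col by -0.64 (SE 0.12, adjusted p = 0.00492).

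Wall and growth genes outside that list also rose, a group put together here after their values were seen. CSLC04 (AT3G28180) makes the glucan backbone of xyloglucan and went from 8.19, 8.12 and 8.46 to 8.89, 8.82 and 9.20 (log2 0.72, SE 0.17, adjusted p = 0.0258). GH9B13 (AT4G02290), of the cellulase family, went from 6.59, 6.84 and 6.46 to 7.55, 7.04 and 7.52 (log2 0.74, SE 0.19, adjusted p = 0.0405). Both sets of groups are separate, yet the calls were lost for CSLC04 without axr3-1 IAA replicate 1 or 3 or axr3-1 control replicate 1 or 2 (adjusted p = 0.061 to 0.154) and for GH9B13 without axr3-1 IAA replicate 1 or 3 or axr3-1 control replicate 1 or 3 (adjusted p = 0.128 to 0.207). ARL (AT2G44080), a relative of the organ size gene ARGOS that promotes cell expansion, stood at 9.15, 8.50 and 8.97 in control and at 10.04, 10.23 and 10.42 with IAA, 2.56-fold higher (log2 1.36, SE 0.22, adjusted p = 0.000939). EXO (EXORDIUM, AT4G08950), a growth gene induced by brassinosteroids, went from 8.01, 8.15 and 8.36 to 9.41, 9.36 and 9.19, 2.21-fold (log2 1.15, SE 0.15, adjusted p = 0.000124). For ARL and EXO the responses in Col were 1.52 and 1.10, and the differences of -0.16 (95% interval -0.81 to 0.49) and 0.05 (-0.41 to 0.50) were not past the threshold.

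CLE44, SD1-29, PSY1R and BRH1 are set side by side here after their values were seen and form no list that was tested. CLE44 (AT4G13195) encodes a peptide hormone that keeps vascular stem cells from becoming xylem. It stood at 5.64, 5.78 and 5.64 in control and at 6.96, 6.77 and 7.28 with IAA (log2 1.31, SE 0.15, adjusted p = 1.94e-05), so that the control arrays lay at or near the floor and every IAA array was above them. SD1-29 (AT1G61380), an S-domain receptor kinase, went from 5.64, 5.64 and 5.95 to 6.60, 6.45 and 6.89 (log2 0.90, SE 0.15, adjusted p = 0.0012). PSY1R (AT1G72300), a receptor kinase for the sulfated peptide PSY1, fell from 6.48, 6.21 and 6.36 to 5.87, 5.95 and 5.87 (log2 -0.45, SE 0.10, adjusted p = 0.0128), a call that was lost without axr3-1 IAA replicate 1 or 3 or axr3-1 control replicate 1 (adjusted p = 0.0563 to 0.08). BRH1 (AT3G61460), a RING-H2 protein gene named for its response to brassinosteroids, rose from 8.72, 8.36 and 8.52 to 9.52, 9.28 and 9.93 (log2 1.04, SE 0.19, adjusted p = 0.00257).

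The remaining rising genes with a symbol have varied roles, and each of their calls was lost when 1 or more arrays were left out singly. GSTU16, a tau class glutathione transferase, was the 1 of 12 measured glutathione transferases to rise, with 0 falling, against 1.79% and 0.613% of all probe sets, and a median response of 0 over the list. It had a response of 0.77 (SE 0.20, adjusted p = 0.0467), and the call was lost without axr3-1 IAA replicate 1 or 2 or 3 or axr3-1 control replicate 1 or 2 or 3 (adjusted p = 0.0586 to 0.246), which is each of the 6 arrays. PR-1-LIKE, a relative of the pathogenesis-related protein PR-1, rose from 8.85, 9.33 and 8.44 to 9.67, 9.93 and 9.58 (log2 0.85, SE 0.19, adjusted p = 0.0171) and lost its call without axr3-1 IAA replicate 1 or 2 or axr3-1 control replicate 1 or 3 (adjusted p = 0.0516 to 0.119). ATIM, a homologue of TIMELESS, rose by 0.96 (SE 0.20, adjusted p = 0.00862), and the call was lost without axr3-1 IAA replicate 3 (adjusted p = 0.0646). The cytochrome P450 gene CYP71B22 rose by 0.53 and lost its call without axr3-1 IAA replicate 2 or 3 or axr3-1 control replicate 1 (adjusted p = 0.052 to 0.0602). Fes1B, a partner of Hsp70 chaperones, rose by 0.56, a call lost without axr3-1 IAA replicate 1 or 2 or 3 or axr3-1 control replicate 1 or 2 or 3 (adjusted p = 0.052 to 0.102), again each of the 6. AR781 rose by 1.14 and lost its call without axr3-1 IAA replicate 1 or 3 or axr3-1 control replicate 2 or 3 (adjusted p = 0.119 to 0.205). P1R1 rose by at least 1.68-fold from the floor and lost its call without axr3-1 IAA replicate 2 or 3 or axr3-1 control replicate 1 or 2 or 3 (adjusted p = 0.0772 to 0.207). CDI, named in RefSeq as induced by cadmium, rose by 0.41 and lost its call without axr3-1 IAA replicate 3 or axr3-1 control replicate 3 (adjusted p = 0.0587 to 0.0688).

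BGLU28 (AT2G44460) responded in axr3-1 and was at the floor in both groups of every other line. It encodes a beta-glucosidase known for its rise under sulfur shortage. It stood at 5.81, 5.65 and 5.64 on the axr3-1 control arrays and at 7.26, 7.05 and 6.97 with IAA, 2.63-fold higher (log2 1.39, SE 0.05, adjusted p = 2.88e-12). The 6 groups of the other lines enter its pooled error with a spread of 0, and with only the axr3-1 arrays in the fit the adjusted p was 0.0122. It was the 1 of 12 measured members of the glucosinolate and beta-glucosidase list to rise, with 0 falling, against 1.79% and 0.613% of all probe sets. The median response of the list was -0.11. BGLU40 had a response of -0.63 (SE 0.18) in axr3-1 that was not past the threshold (adjusted p = 0.0715), although it passed with array weights (adjusted p = 0.0175).

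Of the 112 rising probe sets with 1 annotated gene, 86 are known here only by a locus code, and 12 of the 20 largest rises belong to them. On the whole array this holds for 11933 of the 13513 probe sets with 1 annotated gene. AT5G57760 went from the floor on all 3 control arrays to 8.61, 8.28 and 8.10, at least 6.43-fold (log2 2.69, SE 0.25, adjusted p = 1.1e-06). AT5G62280 stood at 7.27, 6.90 and 6.50 in control and at 9.57, 9.52 and 9.48 with IAA (log2 2.63, SE 0.24, adjusted p = 8.33e-07). AT5G50335 went from 5.64, 5.64 and 6.18 to 8.03, 8.34 and 7.98 (log2 2.30, SE 0.26, adjusted p = 1.74e-05). These were the locus-code genes with rises beyond 2 on the log2 scale, and their responses in Col were 2.36, 2.55 and 1.81, none of which differed past the threshold from those in axr3-1 (adjusted p = 0.786, 0.965 and 0.711).

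AT1G62770 rose from 6.13, 5.83 and 5.83 to 7.71, 7.84 and 7.63 in axr3-1 (log2 1.79, SE 0.13, adjusted p = 6.61e-08), less than in Col, with a difference of -1.25 (SE 0.19, adjusted p = 0.000795). AT5G12050 went from 5.65, 5.64 and 5.64 to 7.06, 7.61 and 7.62 (log2 1.79, SE 0.23, adjusted p = 6.73e-05), and AT1G49200 from 6.56, 6.08 and 6.20 to 7.93, 7.85 and 8.06 (log2 1.67, SE 0.19, adjusted p = 1.23e-05). In both genes every IAA array was above every control array. AT3G19200 rose by 1.48, AT3G12710 by 1.40 and AT2G36220 by 1.42 on the log2 scale (adjusted p = 5.1e-05, 1.2e-05 and 0.00234). AT1G59740, named in RefSeq as NPF4.3 of the NRT1/PTR family of nitrate and peptide transporters, rose from 7.22, 6.89 and 7.20 to 8.34, 8.57 and 8.62 (log2 1.41, SE 0.17, adjusted p = 2.98e-05). AT2G39980 and AT4G27280 rose by 1.48 and 1.40. The third IAA array of AT2G39980 read 7.48 against 8.59 and 8.72, and its call was lost without axr3-1 IAA replicate 1 or 2 (adjusted p = 0.0588 to 0.0673), while AT4G27280 had a control group spread from 7.34 to 8.67 and lost its call without axr3-1 IAA replicate 1 or 3 or axr3-1 control replicate 2 or 3 (adjusted p = 0.0656 to 0.125).

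**Figure D3:**
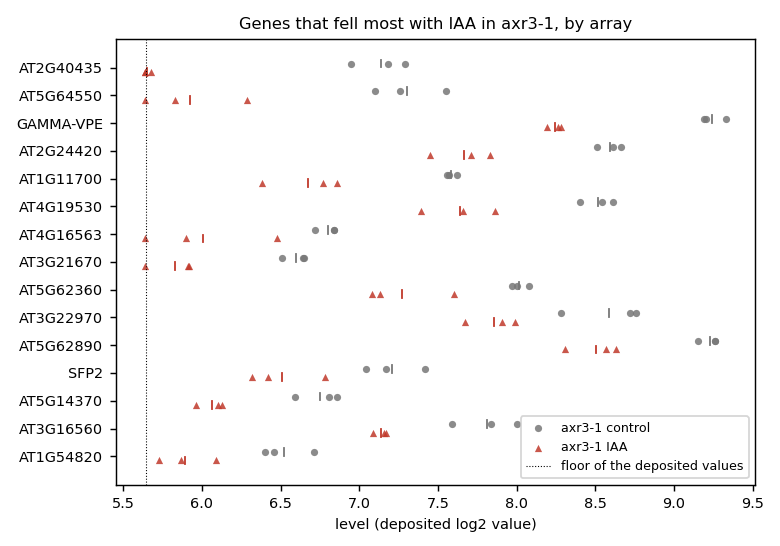
Level (deposited log2 value) on the 3 axr3-1 control arrays (grey circles) and the 3 axr3-1 IAA arrays (red triangles) for the 15 genes with the largest fall; short bars mark group means and the dotted line marks the floor at 5.64. Genes were chosen among those with the 3 IAA arrays below the 3 control arrays, so this separation is not a result. For AT2G40435 2 of the 3 IAA arrays lie at the floor.

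The falls were fewer and smaller. Of the 87 falling probe sets 37 have 1 annotated gene, 33 of these are known only by locus code, and the 4 with a symbol are GAMMA-VPE, SFP2, PSY1R and CHX20. GAMMA-VPE (AT4G32940), a protease that processes other proteins in the vacuole, stood at 9.33, 9.19 and 9.20 in control and at 8.26, 8.28 and 8.19 with IAA, 1.99-fold lower (log2 -0.99, SE 0.16, adjusted p = 0.00115). Its arrays lay close together in both groups, and the groups did not overlap. The response in Col, -0.45, was not past the threshold (adjusted p = 0.136), but the difference between the responses was not either (-0.55, adjusted p = 0.449). GAMMA-VPE was also called lower in iaa17-6 (-0.54, adjusted p = 0.0485) and in iaa5 iaa6 iaa19 (-0.72, adjusted p = 0.00709). SFP2 (AT5G27360), a sugar porter gene, went from 7.42, 7.17 and 7.04 to 6.32, 6.78 and 6.42 (log2 -0.70, SE 0.14, adjusted p = 0.00541). CHX20, a cation/H+ exchanger, read 5.68, 6.06 and 5.96 in control and lay at the floor with IAA, a fall of at least 1.19-fold (log2 -0.26, SE 0.06, adjusted p = 0.0175) that was lost without axr3-1 IAA replicate 1 or 3 or axr3-1 control replicate 2 or 3 (adjusted p = 0.0609 to 0.0948).

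AT2G40435 fell furthest among annotated genes. It stood at 6.95, 7.18 and 7.29 in control and at 5.64, 5.64 and 5.68 with IAA (log2 -1.48, SE 0.16, adjusted p = 5.34e-06). All 6 Col arrays were at the floor, so that the gene was above the floor in axr3-1 control and not in Col control. Its responses in iaa17-6 and iaa5 iaa6 iaa19 were -0.50 and -0.24, not past the threshold (adjusted p = 0.0572 and 0.619). AT5G64550 went from 7.10, 7.55 and 7.26 to 5.83, 6.29 and 5.64 (log2 -1.38, SE 0.14, adjusted p = 3.92e-06), and in Col it read 5.74, 5.70 and 5.64 in control and 5.64, 5.64 and 5.64 with IAA. AT4G16563 showed the same pattern at lower size, with 6.84, 6.72 and 6.84 in control and 6.48, 5.90 and 5.64 with IAA (log2 -0.79, SE 0.14, adjusted p = 0.00158), and lay at the floor on all 6 Col arrays. The axr3-1 responses of these genes lay below those of Col, with differences of -1.48 (SE 0.22, adjusted p = 0.000689), -1.33 (SE 0.20, adjusted p = 0.000725) and -0.79 (SE 0.19, adjusted p = 0.0394). The last of these differences was lost without Col IAA replicate 1 or 2 or 3 or Col control replicate 1 or 2 or 3 or axr3-1 IAA replicate 2 or 3 or axr3-1 control replicate 1 or 2 or 3 (adjusted p = 0.0546 to 0.104). For AT5G64550 and AT4G16563 the fall did not pass with only the axr3-1 arrays in the fit (adjusted p = 0.105 and 0.336).

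The other 10 locus-code genes among the 15 largest falls had responses between -0.93 and -0.63. AT2G24420 went from 8.61, 8.51 and 8.66 to 7.71, 7.83 and 7.45 (log2 -0.93, SE 0.20, adjusted p = 0.0121) and AT4G19530 from 8.61, 8.54 and 8.40 to 7.39, 7.86 and 7.66 (log2 -0.88, SE 0.13, adjusted p = 0.000303). AT3G21670, named in RefSeq as NPF6.4 of the NRT1/PTR family, went from 6.65, 6.51 and 6.64 to 5.64, 5.91 and 5.92 (log2 -0.77, SE 0.14, adjusted p = 0.00329). AT5G14370 fell in axr3-1, with a response of -0.69, against 0.11 in Col, -0.34 in iaa17-6 and -0.45 in iaa5 iaa6 iaa19. Of these other lines only iaa5 iaa6 iaa19 passed the threshold (adjusted p = 0.0452). The difference from Col, -0.80 (adjusted p = 0.0347), was lost without any 1 of 9 arrays (adjusted p = 0.0529 to 0.11). That from the mean of the other 3 lines, -0.46, was not past the threshold (adjusted p = 0.153). AT1G11700, AT5G62360, AT3G22970, AT5G62890, AT3G16560 and AT1G54820 fell, with log2 responses of -0.91, -0.74, -0.73, -0.72, -0.67 and -0.63. Each of these last 6 and AT2G24420 lost its call without 1 or more single arrays. These were for AT2G24420 without axr3-1 IAA replicate 3 or axr3-1 control replicate 3 (adjusted p = 0.0547 to 0.0821), for AT1G11700 without axr3-1 IAA replicate 2 or 3 or axr3-1 control replicate 1 or 2 or 3 (adjusted p = 0.0573 to 0.115) and for AT5G62360 without axr3-1 IAA replicate 1 or 3 or axr3-1 control replicate 1 or 2 or 3 (adjusted p = 0.0885 to 0.202). They were for AT3G22970 without axr3-1 IAA replicate 1 or 3 or axr3-1 control replicate 1 or 2 (adjusted p = 0.0643 to 0.137), for AT5G62890 without axr3-1 IAA replicate 1 or axr3-1 control replicate 2 or 3 (adjusted p = 0.0558 to 0.0969), for AT3G16560 without axr3-1 IAA replicate 1 or 3 or axr3-1 control replicate 1 or 3 (adjusted p = 0.0525 to 0.103) and for AT1G54820 without axr3-1 IAA replicate 1 or 3 or axr3-1 control replicate 1 or 2 (adjusted p = 0.062 to 0.154).

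The rises of axr3-1 were mostly rises in the other lines too, and the falls mostly were not called there. Of the 254 rises 165 (65%) were called higher in Col, 189 (74.4%) in iaa17-6 and 169 (66.5%) in iaa5 iaa6 iaa19, against backgrounds of 3.85%, 4.41% and 3.68% of probe sets called higher in those lines. In the other direction, 30.2% of the Col rises, 30.2% of the iaa17-6 rises and 32.4% of the iaa5 iaa6 iaa19 rises were rises in axr3-1. Of all probe sets 1.79% were. All 3 other lines called 152 of the 254, and 55 were called in 0 of them. Of the 87 falls 30 (34.5%) were called lower in Col, 29 (33.3%) in iaa17-6 and 31 (35.6%) in iaa5 iaa6 iaa19, with backgrounds of 3.18%, 3.31% and 3.59%. They are 6.64%, 6.17% and 6.08% of the falls of those lines, where 0.613% of all probe sets fell in axr3-1. All 3 other lines called 23 of the 87, and 49 were called in 0. At least 4 of the 8 groups lay wholly at the floor for 24 of the falls and 30 of the rises. A line at the floor in both groups cannot be called, so a missing call there is no measured lack of response. The lines share no arrays in these responses, but they share 1 error estimate per probe set.

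Over the 254 rises the median log2 response was 0.89 in axr3-1, 0.90 in Col, 1.10 in iaa17-6 and 0.93 in iaa5 iaa6 iaa19. Over the 87 falls it was -0.62 in axr3-1, -0.22 in Col, -0.21 in iaa17-6 and -0.26 in iaa5 iaa6 iaa19. The probe sets were chosen by their calls in axr3-1, so these medians describe the list and test nothing. A line at the floor in both groups enters them with no response. Of the 55 rises called in no other line 20 differed past the threshold from the mean response of the other 3 lines, and of the 49 such falls 23 did. Over all probe sets tested 2.9% did. The 55 and the 49 were chosen by calls on the same arrays, so these counts too describe the lists and test nothing.

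**Figure D4:**
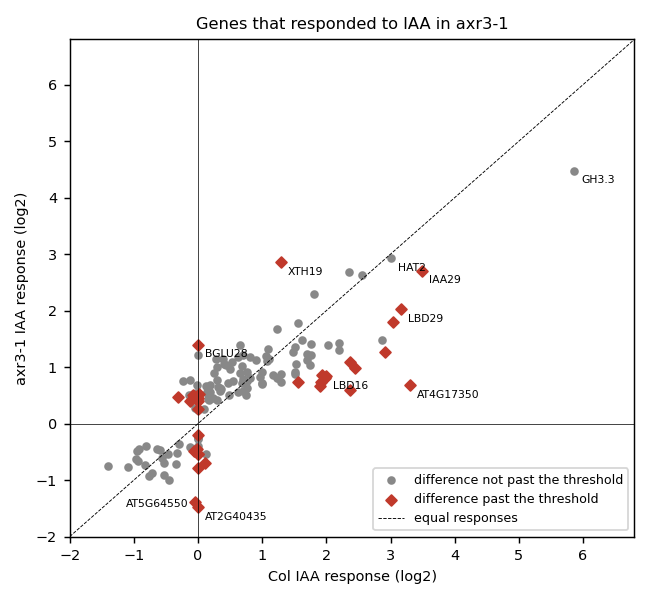
IAA response (log2) in Col on the x axis and in axr3-1 on the y axis for the 148 annotated genes called in axr3-1; red diamonds are genes whose responses differ past an adjusted p of 0.05, grey points are the rest and the dashed line marks equal responses. XTH19 and BGLU28 lie above the line, AT4G17350, LBD29 and LBD16 lie below it, and AT2G40435 and AT5G64550 fall in axr3-1 with a Col response of 0.00 and -0.05.

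Tested directly, the responses of axr3-1 and Col differed for 230 probe sets, or 1.62% of those tested, with 106 differences above 0 and 124 below. The differences below 0 were mostly missing or reduced rises. Of these 124 probe sets 108 rose in Col, 31 rose in axr3-1 as well and 15 fell in axr3-1. The differences above 0 were mostly missing falls. Of these 106 probe sets 85 fell in Col, 2 fell in axr3-1 and 19 rose in axr3-1. Over all probe sets tested, 3.85% rose and 3.18% fell in Col, and 1.79% and 0.613% did so in axr3-1. Both lists were chosen by a difference that holds the Col response, so these counts describe the lists and test nothing. The 230 shrank to 46 when probe sets with any array at the floor were left out, and to 93 when the lowest 60% by mean were left out.

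Among annotated genes whose difference from Col passed the threshold, the 8 most negative were all locus codes. AT4G17350 stood at 5.87, 6.14 and 5.70 in axr3-1 control and at 6.54, 6.48 and 6.72 with IAA, and in Col at 5.64, 5.88 and 5.95 and 9.14, 9.14 and 9.09. It rose in both lines, by 0.68 on the log2 scale in axr3-1, and the responses had a difference of -2.62 (SE 0.18, adjusted p = 9.62e-08). AT3G51410 was at the floor in the control arrays of both lines and reached 6.25, 6.12 and 6.33 in axr3-1 and 8.01, 7.99 and 8.02 in Col, a difference of floored values of -1.77 (SE 0.14, adjusted p = 2.76e-07). AT3G26760 rose to 7.27, 7.26 and 6.86 in axr3-1 and to 9.18, 8.95 and 8.67 in Col from control levels that overlapped, a difference of -1.64 (SE 0.31, adjusted p = 0.00593). These genes kept a rise of reduced size in axr3-1, as did AT2G41380, whose rise (0.98) was lost without axr3-1 IAA replicate 1 or 3 or axr3-1 control replicate 2 or 3 (adjusted p = 0.103 to 0.252).

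AT5G40590 and AT5G39580 had axr3-1 control levels above those of Col. AT5G40590 stood at 8.07, 8.11 and 7.58 in axr3-1 control and at 8.27, 8.54 and 8.75 with IAA. In Col it read 5.76 to 6.28 in control and 8.96, 9.09 and 8.40 with IAA. Every axr3-1 control array was thus above every Col control array, while the IAA arrays of the lines overlapped. Its response was smaller in axr3-1, with a difference of -2.26 (SE 0.26, adjusted p = 3.13e-05). AT5G39580 stood at 6.99, 7.09 and 6.41 and 7.03, 6.89 and 7.47 in axr3-1 and at 5.84, 5.86 and 5.64 and 7.91, 7.94 and 7.41 in Col, a difference of -1.68 (SE 0.26, adjusted p = 0.00117). AT3G18560 was at the floor in axr3-1 control, read 5.75, 5.95 and 6.17 with IAA, and rose in Col from 6.49, 6.09 and 6.40 to 8.13, 8.43 and 8.29, a difference of floored values of -1.65 (SE 0.20, adjusted p = 6.62e-05). The remaining gene was AT2G40435, whose fall in axr3-1 is described above. The AT2G41380 difference, -1.46 (adjusted p = 0.035), was lost without Col IAA replicate 1 or 2 or 3 or Col control replicate 2 or 3 or axr3-1 IAA replicate 2 or 3 or axr3-1 control replicate 1 or 2 (adjusted p = 0.0527 to 0.112).

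Of the 8 annotated genes with the most positive difference from Col past the threshold, XTH19 rose more in axr3-1, and the other 7 fell in Col with no called response in axr3-1. AT3G01190 stood at 8.49, 8.39 and 8.46 in axr3-1 control and at 8.28, 8.23 and 8.72 with IAA, and in Col at 9.20, 9.28 and 9.25 and 7.04, 7.38 and 7.29. The axr3-1 response of -0.04 had a 95% interval of -0.34 to 0.26, and the difference from Col was 1.97 (SE 0.20, adjusted p = 8.36e-06). The IAA level was higher in axr3-1 on every array although the control level was lower. AT4G20460 followed it at 7.36, 6.95 and 7.07 and 7.47, 7.04 and 7.65 in axr3-1 against 7.69, 7.57 and 7.89 and 6.44, 6.55 and 6.40 in Col, a difference of 1.51 (SE 0.23, adjusted p = 0.000794). AT4G11190 differed by 1.74 (SE 0.35, adjusted p = 0.0115, and 0.112 with only these lines in the fit), AT4G25250 by 1.58 (SE 0.24, adjusted p = 0.000773) and AT1G72200 by 1.50 (SE 0.28, adjusted p = 0.00609).

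For AT3G01260 and AT4G11210 the axr3-1 control arrays were at or near the floor. AT3G01260 was at the floor on all 6 axr3-1 arrays, whereas in Col it went from 7.85, 7.98 and 8.26 to 5.77, 5.72 and 6.27, so its difference of 2.11 is one of floored values (SE 0.25, adjusted p = 5.05e-05). AT4G11210 read 6.02, 6.17 and 5.64 in axr3-1 control and 5.88, 6.06 and 5.99 with IAA, against 7.32, 7.82 and 7.11 and 5.76, 5.86 and 5.64 in Col, with a difference of 1.69 (SE 0.25, adjusted p = 0.000773). AT3G01190, by contrast, was well above the floor on all axr3-1 arrays.

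**Figure D5:**
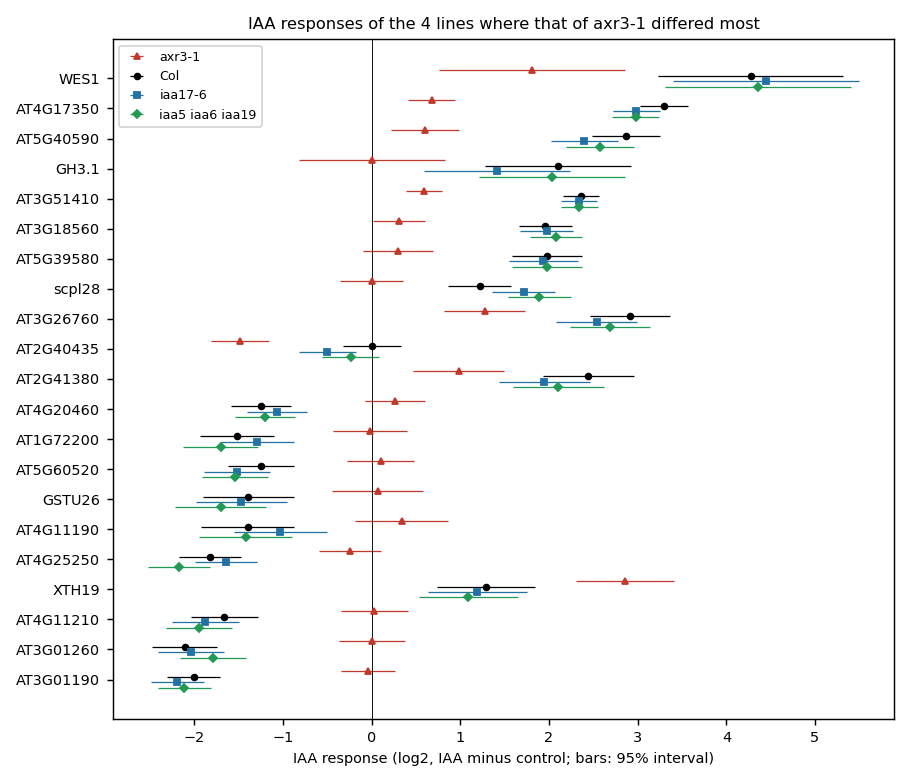
IAA response (log2, IAA minus control) with its 95% interval in axr3-1 (red triangles), Col (black circles), iaa17-6 (blue squares) and iaa5 iaa6 iaa19 (green diamonds) for the 21 genes whose axr3-1 response differed most from that of Col or from the mean of the other 3 lines. The axr3-1 point lies closer to 0 than those of the other 3 lines in all genes shown but XTH19, where it lies above them, and AT2G40435, where it lies below them. GH3.1, scpl28 and AT3G01260 were at the floor on all 6 axr3-1 arrays. Genes were chosen by the size of the difference, so the distance of the axr3-1 point from the others is not a result.

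The difference from the mean response of the other 3 lines shares the axr3-1 and Col arrays with the test above and has more arrays behind it. It called 411 probe sets, or 2.9% of those tested, with 209 differences above 0 and 202 below, and 218 probe sets were called in the same direction against Col. It called 457 without iaa5 iaa6 iaa19 IAA replicate 1, and 631 with the replicate number as a block. Genes among its 8 largest in either direction that the test against Col had not placed there were WES1, GH3.1, scpl28, GSTU26 and AT5G60520. The WES1 response was lower in axr3-1, with a difference of -2.55 (SE 0.58, adjusted p = 0.0165), with responses of 4.27, 4.45 and 4.35 in Col, iaa17-6 and iaa5 iaa6 iaa19. This call was lost without axr3-1 IAA replicate 1 or 3 or axr3-1 control replicate 1 (adjusted p = 0.0656 to 0.077). GH3.1 differed by -1.85 (SE 0.45, adjusted p = 0.0292), a difference of floored values that was lost without axr3-1 IAA replicate 1 or 2 or 3 or axr3-1 control replicate 1 or 2 or 3 (adjusted p = 0.0703 to 0.0826).

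The gene scpl28 (AT2G35770), of the serine carboxypeptidase-like family, was at the floor on all 6 axr3-1 arrays and rose by 1.22, 1.72 and 1.89 in the other lines, a difference of -1.61 (SE 0.20, adjusted p = 3.39e-05). GSTU26, a tau class glutathione transferase, fell in Col, with a response of -1.39, and had one of 0.07 in axr3-1 (95% interval -0.44 to 0.58), with arrays at 7.72, 7.49 and 7.19 in control and 7.17, 7.63 and 7.80 with IAA. Its difference from the mean of the other lines was 1.59 (SE 0.28, adjusted p = 0.00215). AT5G60520 stood at 7.28, 7.33 and 7.31 in axr3-1 control and at 7.51, 7.30 and 7.42 with IAA, whereas in Col all 3 IAA arrays were at the floor. Its difference from the mean of the other lines was 1.54 (SE 0.21, adjusted p = 9.8e-05) and that from Col alone 1.35 (SE 0.25, adjusted p = 0.00573), both of floored values. GSTU28 is a further tau class gene called in Col and not in axr3-1, with responses of -1.04 and -0.05 that differed by 0.99 (SE 0.10, adjusted p = 7.85e-06).

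Much of the response has no gene name here. Of the rises 139 belonged to probe sets unnamed in the annotation used, with responses from 0.17 to 3.69 on the log2 scale, a median of 0.93 and 62 of at least 2-fold. Of the falls 50 were unnamed, from -1.56 to -0.17, with 2 of at least 2-fold. On the whole array 8730 of the 22746 probe sets other than controls were unnamed. A further 3 rising probe sets name several genes. Of 2271 pairs of neighbouring protein-coding genes with both members tested, 2 pairs had both called, and both rose in each. These were XTH18 with XTH19, and AT2G22880 with AT2G22890, which rose by 0.76 and 0.28. Both AT2G22880 and AT2G22890 read 5.64, the floor, on all 3 axr3-1 control arrays. Over all probe sets tested, 1.79% rose and 0.613% fell in axr3-1, and whether 2 such pairs are many was not tested.

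Of 25 markers of root, root hair, shoot and seed reserve 7 have a named probe set, and 0 of these passed the test of the IAA response in axr3-1. Of all probe sets 1.79% rose and 0.613% fell. PYK10, a beta-glucosidase abundant in roots, had a response of 0.01 (95% interval -0.22 to 0.24). The photosynthesis genes RCA and LHCB4.1 had responses of -0.12 and -0.12 (adjusted p = 0.788 and 0.832). The root hair wall genes EXPA7, EXPA18 and XTH26 were at the floor on all 6 axr3-1 arrays, so that no response could be read from them. ICL, a glyoxylate cycle gene that marks the use of seed oil, spread from 9.27, 9.89 and 11.12 in control to 8.91, 9.23 and 9.93 with IAA (log2 -0.73, SE 0.62, adjusted p = 0.679), and its part in any other result was not tested.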

How the data were processed

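Total RNA of Arabidopsis seedlings was measured on 24 ATH1 arrays, of which 6 are the axr3-1 arrays. The authors deposited 1 log2 value per probe set and array. That the scale is log2, with a floor at 50, was inferred from the values, and how they were summarized and normalized is not given in the sources used here. Control probe sets (64) were left out, as were probe sets whose mean was not above the value at 30% of the ranking by mean. That value was the floor itself, so this removed 8554 probe sets (37.6%), none of them above the floor on any array, and kept 14192.

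A linear model of 8 group means was fitted with limma 3.58.1 (R 4.3.3, lmFit and eBayes, the variance prior following the mean, and 16 residual degrees of freedom). Benjamini-Hochberg adjustment was made over all probe sets for each of 3 contrasts, at 0.05. These were the axr3-1 response, its difference from the Col response, and its difference from the mean response of the other 3 lines. The procedure was tested on simulated data. A group wholly at the floor gives folds as bounds.

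Genes named are, first, the 20 largest rises and 15 largest falls past the threshold. Only genes whose IAA and control arrays did not overlap were taken for these. Also named are the 8 largest differences in each direction for each difference, up to 6 called members and 4 members called only in Col of each of 17 lists, and the listed tissue markers. Called genes with a symbol outside this rule were added after their values were seen, as were list members with a response that was not called. These are AR781, BRH1, ATIM, SD1-29, EXO, PR-1-LIKE, P1R1, GH9B13, CSLC04, Fes1B, CYP71B22, CDI, PSY1R and CHX20. The members and lists were chosen with earlier results of these data known. Names come from the platform annotation and RefSeq.

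Control and IAA arrays carry the same replicate numbers. In axr3-1, same-numbered arrays correlated by -0.15 to 0.01 in their deviations from the group means, so the numbers were not taken to pair arrays. They correlated by -0.07 to 0.50 in Col, 0.16 to 0.70 in iaa17-6 and 0.58 to 0.84 in iaa5 iaa6 iaa19. Different-numbered arrays correlated by -0.10 to 0.13 in axr3-1, -0.53 to 0.32 in Col, -0.65 to 0.24 in iaa17-6 and -0.76 to 0.50 in iaa5 iaa6 iaa19. The numbers may pair arrays in iaa17-6 and iaa5 iaa6 iaa19. Alternatives changed the filter, the normalization, the trend, array weights, the groups fitted, a replicate block, and each array left out in turn. The number of arrays limits the precision.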

Additional observations from a re-analysis of the deposited data

Results flagged for a closer look

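The genes below have an axr3-1 response that differs, by a test of the difference itself (limma, adjusted p under 0.05), from that of another line. Values are differences of log2 responses. The test against Col and the test against the mean of the other 3 lines share the axr3-1 and Col arrays.

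The axr3-1 response was lower than that of Col for AT4G17350 (-2.62), AT5G40590 (-2.26), AT3G51410 (-1.77), AT5G39580 (-1.68), AT3G18560 (-1.65), AT2G40435 (-1.48), AT3G26760 (-1.64) and AT2G41380 (-1.46). It was higher than that of Col for XTH19 (1.57), AT3G01260 (2.11), AT3G01190 (1.97), AT4G11190 (1.74), AT4G11210 (1.69), AT4G25250 (1.58), AT4G20460 (1.51) and AT1G72200 (1.5).

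The axr3-1 response was lower than the mean response of the other lines for AT4G17350 (-2.41), AT5G40590 (-2.01), AT3G51410 (-1.76), AT5G39580 (-1.66), AT3G18560 (-1.69), WES1 (-2.55), GH3.1 (-1.85) and scpl28 (-1.61). It was higher than that mean for XTH19 (1.67), AT3G01260 (1.98), AT3G01190 (2.06), AT4G11190 (1.62), AT4G11210 (1.86), AT4G25250 (1.63), GSTU26 (1.59) and AT5G60520 (1.54). The values of AT3G01260, AT3G51410, AT3G18560, AT2G40435, GH3.1, scpl28 and AT5G60520 are differences of floored values.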

How the results depend on the processing

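The deposited floor, the unknown normalization and 3 arrays per group limit these results, and a change between levels under the floor could not be seen. No named call changed sign under the alternatives run, while 9 named responses that were not called did. Counts stayed within 1.5 times for all contrasts with no filter, median centring, quantile normalization and no mean trend. With every probe set left out that was at the floor on any array, the axr3-1 response had 144 calls (118 higher, 26 lower), the difference from Col 46 and that from the other lines 135. With the lowest 60% left out these were 193 (169 and 24), 93 and 174. These filters test fewer probe sets. With only the axr3-1 arrays in the fit the response had 84 calls (72 and 12), with fewer residual degrees of freedom. With array weights it had 595 (263 lower) and the difference from Col 368, and the cause was not tested. With the replicate number as a block the response had 672 calls (306 lower), the difference from Col 363 and that from the other lines 631, although the numbers did not pair the axr3-1 arrays. Leaving out 1 array at a time gave 208 to 331 calls in the response (158 to 242 higher, 50 to 93 lower), 161 to 208 for the difference from Col and 295 to 457 for that from the other lines. The lowest response counts came without axr3-1 IAA replicate 3. Of the named calls, 20 of 59 in the response, 23 of 32 in the difference from Col and 29 of 38 in that from the other lines passed under each alternative that tested them, of which 8, 3 and 7 were tested in all and the rest were left out by 1 or more of the stricter filters. WES1 and BGLU40, not called in the response, passed with the replicate block (adjusted p = 0.00808 and 0.0411).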
